A study of Mus musculus with 12 samples.

Results

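The RNA of the constitutive proteasome was examined in sorted CD8 T cells, in 12 libraries. The members were the protein-coding genes whose symbols begin with Psma, Psmb, Psmc, Psmd, Psme, Psmf or Psmg, leaving out Psmb8, Psmb9 and Psmb10. This gave 47 of the 35855 genes with a transcript in the files. By role there were 8 core alpha genes, 8 core beta genes, 6 ATPases of the cap, 11 other cap subunits, 6 activators or inhibitors and 7 assembly chaperones. The last member, Psmc3ip, carries the prefix because its protein binds an ATPase subunit, but it acts in meiotic recombination and is not a part of the proteasome.

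The proteasome degrades proteins tagged with ubiquitin. Its core particle is a barrel of stacked rings: the outer alpha rings gate the entrance, and the inner beta rings hold the catalytic subunits. The cap, or regulatory particle, binds the ubiquitin chains, removes them and threads the substrate into the core by means of a ring of ATPases. In lymphocytes exposed to interferon, the 3 constitutive catalytic subunits Psmb5, Psmb6 and Psmb7 can be replaced by Psmb8, Psmb9 and Psmb10, and the particle is then called the immunoproteasome, known for cutting peptides that are presented on MHC class I.

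The 4 groups held 3 libraries each. Donors of both genotypes were female mice with the background strain C57BL/6, and the WT donors of the study were either C57Bl/6 J or the congenic B6-Ly5.1. TCF-1 cKO mice carried floxed Tcf7 alleles, the gene of the transcription factor TCF-1, with a Cre driven by Cd4, so the deletion covers all T cells from the double-positive stage of the thymus. Pre-transplant libraries came from donor CD8 T cells sorted from spleen. Post-transplant libraries came from donor CD8 T cells sorted back at day 7 from the spleens of irradiated BALB/c recipients that had also been given WT bone marrow. Donors were age-matched as closely as the study could, but the age behind each library, and whether libraries came from separate or pooled animals, were not given in the sources used here. The p-values therefore measure only the spread between these libraries, which may be technical.

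Library totals were 4520270 to 9577076 estimated counts in the pre-transplant TCF-1 cKO group and 18184814 to 32657005 in the other groups. Tcf7, the targeted gene, lay at 26.2, 34.1 and 62.7 normalized CPM (counts scaled to library size and composition) in pre-transplant TCF-1 cKO replicates 1 to 3, against 117, 76 and 166 in WT. At day 7 it lay at 14.6, 13.6 and 14.1 in TCF-1 cKO and at 26.9, 26.4 and 10.7 in WT, so the library labelled WT replicate 3 stood below all 3 TCF-1 cKO libraries. The deleted exons are not given in the sources used here, so a count over the whole gene need not reach 0. Counts of members called between the genotypes at day 7 are given with and without that library. TCF-1 cKO post-transplant replicate 2 is titled CD8 but has a source label that names CD4 T cells, and its Cd4 level was 2.04 normalized CPM beside 621 for Cd8a. The summed CPM of 7 B cell markers was 13110 to 23980 in the pre-transplant libraries and 324.5 to 512.9 in the post-transplant libraries, that of 7 erythroid markers was 4466 to 26680 and 205 to 1194, and that of 6 T cell markers was 632 to 1440 and 3536 to 5459. The myeloid and NK marker sums, like those of B cells and erythroid cells, were higher in all pre-transplant than in all post-transplant libraries. So was the sum of 3 CD4 T cell markers, at 63.33 to 206.9 CPM before and 3.296 to 28.59 after transplant. In pre-transplant WT, Cd4 stood at 110, 87.2 and 85.6 normalized CPM beside 154, 87.1 and 151 for Cd8a. In pre-transplant TCF-1 cKO, Cd4 stood at 22.8, 23.2 and 48.6 beside 26.4, 28.6 and 30.8 for Cd8a. The dendritic sums overlapped only slightly (61.53 to 160.6 before and 20.96 to 63.87 after transplant). In bulk RNA fewer cells of a type and less RNA per cell cannot be told apart. The part of these cells in the differences between stages was not tested.

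RefSeq promoter windows were found for 39 of the 47 members. None was found for Psma8, Psmb1, Psmb2, Psmb7, Psmc3, Psmd3, Psmd7 and Psmg2, so these were not searched. The 250 bases before each start site were searched on both strands for TGACNNNGC, the core letters of the antioxidant response element, and for CCAAT. TGACNNNGC was present in 5 of the 39 members, or 5 of their 42 windows (11.9%), and in 10.2% of all 32851 windows. The 5 members were Psmb5, Psmb6, Psmc6, Psmd12 and Psmd9. CCAAT was present in 14 of the 39 members, or 14 of their 42 windows (33.3%), and in 33.8% of all windows. By role it was present in 5 of 7 core alpha members and 2 of 5 core beta members. The windows printed are those of the called members of the genotype comparison at day 7 that are in the table (Psmb5, Psma6, which has 2 start sites, and Psmf1) and of Psmb6, because Psmb5 and Psmb6 are the catalytic subunits that hold TGACNNNGC. Each is written 5′ to 3′ in the direction of the gene in build GRCm38.p6 and ends at the base before the RefSeq start site. That site can differ from the start of the gene in the annotation used for the counts. The Psmf1 window lies inside the annotated gene, and the Psmb5 window reaches into it. Capitals mark the matched letters, with CCAAT on the opposite strand read as ATTGG. A match is a description of the sequence and not a bound site.
Psmb5, chr14:54617996-54618245, minus strand: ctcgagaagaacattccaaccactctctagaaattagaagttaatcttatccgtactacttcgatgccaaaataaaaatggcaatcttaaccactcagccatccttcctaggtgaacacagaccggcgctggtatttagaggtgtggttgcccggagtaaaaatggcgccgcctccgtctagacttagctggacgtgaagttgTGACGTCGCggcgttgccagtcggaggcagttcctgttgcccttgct
Psmb6, chr11:70525107-70525356, plus strand: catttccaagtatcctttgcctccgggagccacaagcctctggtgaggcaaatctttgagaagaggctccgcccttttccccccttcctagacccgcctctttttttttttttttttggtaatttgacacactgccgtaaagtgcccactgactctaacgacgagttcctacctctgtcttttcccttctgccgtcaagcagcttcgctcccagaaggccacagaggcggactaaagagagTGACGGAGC
Psma6 first start site, chr12:55383972-55384221, plus strand: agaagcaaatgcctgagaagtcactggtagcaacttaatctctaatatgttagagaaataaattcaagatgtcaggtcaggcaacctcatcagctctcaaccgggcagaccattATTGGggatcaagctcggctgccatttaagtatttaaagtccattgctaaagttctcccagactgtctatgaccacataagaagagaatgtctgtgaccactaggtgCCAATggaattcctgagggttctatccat
Psma6 second start site, chr12:55398575-55398824, plus strand: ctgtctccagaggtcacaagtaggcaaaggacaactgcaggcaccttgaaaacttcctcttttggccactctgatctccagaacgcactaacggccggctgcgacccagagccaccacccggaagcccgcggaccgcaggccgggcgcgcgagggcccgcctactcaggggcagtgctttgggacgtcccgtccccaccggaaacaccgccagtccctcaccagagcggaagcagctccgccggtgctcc
Psmf1, chr2:151741311-151741560, minus strand: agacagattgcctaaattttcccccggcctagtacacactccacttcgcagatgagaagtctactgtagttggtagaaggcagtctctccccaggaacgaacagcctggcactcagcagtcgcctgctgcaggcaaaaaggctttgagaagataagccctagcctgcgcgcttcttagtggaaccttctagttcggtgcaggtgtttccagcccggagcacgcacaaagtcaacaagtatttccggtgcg
In the Psmb5 window the match begins 47 bases before the start site, and in the Psmb6 window 9 bases before it. The CCAAT matches of Psma6 lie in the window of the first start site, and Psmf1 holds neither set of letters.

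Abundance per transcript length was compared between members with the deposited TPM values, summed over the transcripts of a gene. The sum over the 47 members was 6149, 5558 and 6076 TPM in pre-transplant WT replicates 1 to 3 and 4887, 4736 and 5142 TPM in TCF-1 cKO. At day 7 it was 12349, 11261 and 15100 TPM in WT and 14785, 15469 and 15074 TPM in TCF-1 cKO. The post-transplant mean was thus 2.18 times the pre-transplant mean in WT and 3.07 times in TCF-1 cKO, with no overlap between stages in either genotype. The 14 standard core subunits held most of this increase: their summed TPM was 3075 ± 162 (SD, n = 3) before and 9004 ± 1518 (SD, n = 3) after transplant in WT, and 2871 ± 111 (SD, n = 3) and 10349 ± 461 (SD, n = 3) in TCF-1 cKO. The ATPases went from a mean of 553 to 706 TPM in WT and from 413 to 1008 TPM in TCF-1 cKO, and the other cap subunits from 913 to 1162 TPM and from 671 to 1178 TPM.

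The subunits of a ring, which enter the particle in equal numbers, were far apart in RNA level. Psma7 was the highest alpha subunit in all 12 libraries, with a mean of 499 ± 123 TPM (SD, n = 3) in pre-transplant WT and 2245 ± 299 TPM (SD, n = 3) in post-transplant TCF-1 cKO. Psmb3, a structural beta subunit, was the highest beta subunit in all libraries but pre-transplant TCF-1 cKO replicate 1, where Psmb6 was. Psmb7 was the lowest beta subunit in 10 of the 12 libraries, and Psmb5 took that place in post-transplant TCF-1 cKO replicates 1 and 3. Within the beta ring the highest TPM was 6.0 to 14.7 times the lowest before transplant and 15.7 to 45.4 times after it. The largest ratio, 45.4, belonged to post-transplant WT replicate 2. Among the ATPases the ratio was 2.01 to 2.66 in the 3 post-transplant TCF-1 cKO libraries, while post-transplant WT replicate 2 reached 63.5 with Psmc6 at 3.43 TPM. The order of the leading genes was not separated by the spread: at day 7 in TCF-1 cKO, Psmb3 had 2470 ± 290 TPM and Psma7 2245 ± 299 TPM (SD, n = 3 each).

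**Figure D1:**
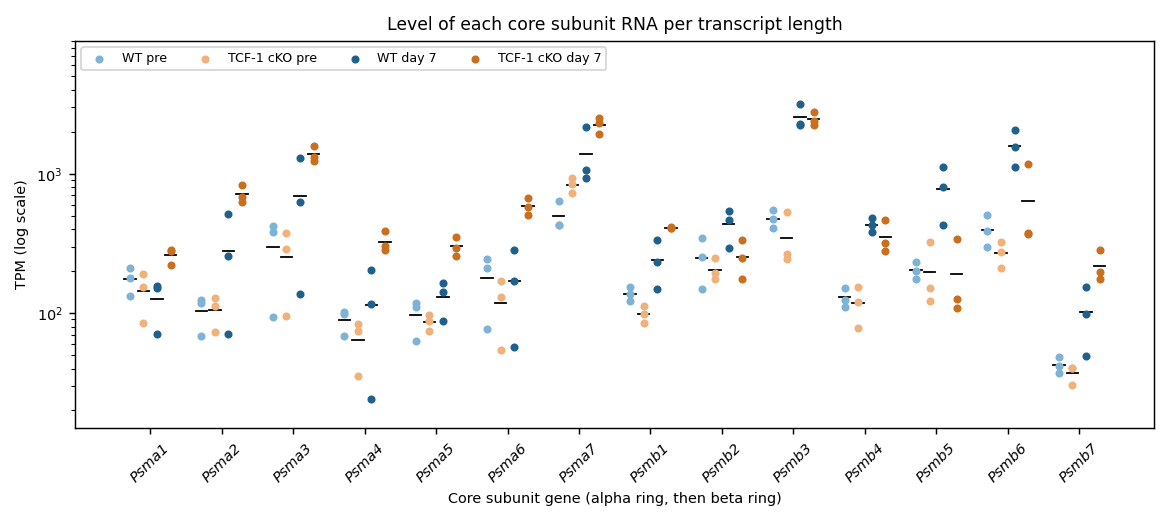
TPM (log scale) of the 14 standard core subunit genes, with 1 point per library, 4 groups of 3 libraries and the group mean as a black bar. Psma7 and Psmb3 stand highest in their rings, and the 3 libraries of an alpha subunit spread more widely in WT at day 7 than in TCF-1 cKO at day 7.

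The members known mainly from other tissues were low. Psma8, an alpha subunit of the testis, lay between 0 and 1.67 normalized CPM, with 3 counts corresponding to 0.0922 to 0.667 CPM in a library, and thus lay near that limit in most libraries. Psmb11, the catalytic subunit of the thymic cortex, lay between 1.44 and 15.1 normalized CPM. Psme4, an activator known from chromatin and spermatogenesis, had between 1.2 and 17 TPM. Psme2b, a near copy of the activator gene Psme2, matches Psme2 at 99.37% over 794 bases, so reads may have been split between them and both values are uncertain. Its counts were 5.17% of those of the pair. Near copies of at least 95% identity over 200 bases existed for 12 members in all, and no other copy held over 5% of the counts of a pair.

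The first question was how the members differ between the stages, that is between libraries of donor cells before transplant and of donor cells sorted back at day 7. As given above, T cell markers were lower and B cell, erythroid, myeloid and NK markers higher in all pre-transplant libraries. A rise here is thus a difference between these RNA mixtures, and the part of other cells in it was not tested. In TCF-1 cKO, 40 of 47 members rose and 1 fell at an FDR below 0.1 (edgeR quasi-likelihood test, Benjamini-Hochberg adjustment over all genes tested), where 19.7% of the 18535 genes tested rose and 16.8% fell. The median log2 fold change of the members was 2.96, against -0.29 over all genes. In WT, 22 of the 46 members tested rose and 0 fell, where 9.7% of 16790 genes rose and 10.3% fell. An unadjusted p under 0.05 was found for 26 members, beside 4723 of the 16790 genes. The median was 1.50, against -0.30 over all genes. With the test of DESeq2, 28 members rose and 0 fell in WT, where 15.6% of all genes rose. Without the post-transplant library labelled WT replicate 3, 23 members rose in WT, where 13.4% of all genes did. Without pre-transplant WT replicate 1 or 3 it was 12 or 10 members, where 4.38% or 3.68% of all genes rose. In TCF-1 cKO 38 members changed without post-transplant replicate 2, the library with the CD4 source label, and 43 without pre-transplant replicate 3, where 27% and 33.2% of all genes changed.

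The composition scaling matters for these values. When libraries were scaled by their totals alone, the median of all genes moved to -1.25 in WT and -1.89 in TCF-1 cKO, and that of the members to 0.53 and 1.32. Relative to the median of all genes the members were higher by 1.80 in WT and 3.25 in TCF-1 cKO with the main scaling and by 1.78 and 3.21 with totals alone. The scaling shifts all genes of a comparison by nearly the same amount, so these differences could hardly change and are no check of it. With totals alone 9 members rose and 1 fell in WT, where 4.27% of all genes rose and 24.6% fell. In TCF-1 cKO 31 rose and 3 fell, where 8.96% rose and 57.2% fell. The 9 in WT were 2 alpha genes, 5 beta genes, 1 activator and 1 cap subunit that is not an ATPase. No ATPase and no assembly chaperone rose in WT with that scaling. The activators and inhibitor as a group changed sign there, with medians of 0.84 in WT and 1.10 in TCF-1 cKO by the main scaling and -0.20 and -0.46 with totals alone.

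All 7 standard alpha subunits rose at day 7 in TCF-1 cKO, by log2 fold changes of 2.93 to 4.98. The steepest was Psma2, which stood at 103, 97.3 and 100 normalized CPM before transplant and 3250, 2547 and 3758 after it in TCF-1 cKO replicates 1 to 3. Its log2 fold change was 4.98 ± 0.38 (SE) with an edgeR adjusted p of 0.000105. In WT, Psma2 stood at 185, 89.1 and 199 normalized CPM before transplant and at 945, 330 and 2198 after it, with a log2 fold change of 2.60 ± 0.68 (SE) and an edgeR adjusted p of 0.0299. The stages did not overlap in either genotype, but the 3 post-transplant WT libraries differed widely among themselves. Of the 7 alpha subunits tested in WT, 4 rose: Psma2, Psma3, Psma5 and Psma7. Psma7 had the smallest p of the ring there, at 200, 272 and 223 normalized CPM before and 1256, 1502 and 3084 after transplant (log2 fold change 2.78 ± 0.48 (SE), edgeR adjusted p = 0.00546).

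The 7 standard beta subunits rose in both genotypes. Psmb3 had the smallest p of the ring in WT, at 189, 219 and 170 normalized CPM before and 2094, 2864 and 3522 after transplant, a log2 fold change of 3.60 ± 0.44 (SE) with an edgeR adjusted p of 0.00125. In TCF-1 cKO it went from 67.6, 61.7 and 219 to 2877, 3038 and 2590 normalized CPM, a log2 fold change of 4.61 ± 0.58 (SE). Psmb1, another structural subunit, had the smallest p of the ring in TCF-1 cKO, at 77, 81.7 and 93 normalized CPM before and 1446, 1293 and 1376 after transplant (log2 fold change 4.02 ± 0.35 (SE), edgeR adjusted p = 0.000119). The post-transplant TCF-1 cKO libraries lay close together for Psmb1, whereas the WT libraries ranged from 573 to 1101. The thymic subunit Psmb11 went the other way. It fell in TCF-1 cKO from 13.1, 15.1 and 14.8 to 5.25, 6.98 and 4.82 normalized CPM (log2 fold change -1.35 ± 0.45 (SE), edgeR adjusted p = 0.0499), and its WT log2 fold change of -1.60 ± 0.82 (SE) did not pass. The call in TCF-1 cKO was lost with the GC content and length trends taken out (log2 fold change -0.81), with the replicate block, without a filter, in a joint fit of the 12 libraries and in 4 of 6 fits that left out 1 library.

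The 3 constitutive catalytic subunits all rose in both genotypes. Psmb7, the trypsin-like subunit, stood at 29.4, 25.1 and 36.7 normalized CPM in pre-transplant WT and 164, 113 and 302 in post-transplant WT. In TCF-1 cKO it stood at 14.5, 19 and 28.9 before and 418, 336 and 580 after transplant. Its log2 fold change was 2.39 ± 0.54 (SE) in WT and 4.41 ± 0.44 (SE) in TCF-1 cKO, both past the FDR. Psmb5, the chymotrypsin-like subunit, stood at 87.7, 113 and 106 normalized CPM in pre-transplant WT and 937, 1788 and 604 in post-transplant WT. In TCF-1 cKO it stood at 39.8, 46.8 and 162 before and 192, 464 and 157 after transplant, where post-transplant replicate 3 lay below pre-transplant replicate 3. Its log2 fold change was 3.19 ± 0.54 (SE) in WT and 1.71 ± 0.63 (SE) in TCF-1 cKO, with edgeR adjusted p-values of 0.00494 and 0.0718. The latter passed in only 2 of 6 fits that left out 1 library, with adjusted p-values between 0.00712 and 0.265, and with totals alone the log2 fold change was 0.28. Psmb6, the caspase-like subunit, stood at 124, 210 and 170 normalized CPM in pre-transplant WT, 86.6, 54.5 and 118 in pre-transplant TCF-1 cKO, 1515, 2745 and 1311 in post-transplant WT and 478, 1334 and 450 in post-transplant TCF-1 cKO. Its log2 fold change was 3.21 ± 0.51 (SE) in WT and 3.12 ± 0.54 (SE) in TCF-1 cKO. The difference between the 2 changes did not pass the FDR for any of the 3 (interaction log2 fold change 1.75 ± 0.67 for Psmb7, -1.74 ± 0.86 for Psmb5 and -0.34 ± 0.74 for Psmb6, SE, edgeR adjusted p = 0.258, 0.333 and 0.852). Without the post-transplant library labelled WT replicate 3 that of Psmb7 passed, at 2.24.

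All 6 ATPases rose in TCF-1 cKO and 3 of 6 in WT (Psmc3, Psmc4 and Psmc5). With library totals alone 6 passed in TCF-1 cKO and 0 in WT. Psmc6 had the smallest p in TCF-1 cKO, at 24.8, 24.9 and 9.62 normalized CPM before and 508, 367 and 669 after transplant, a log2 fold change of 4.69 ± 0.52 (SE). In WT its post-transplant libraries held 114, 17.2 and 320 normalized CPM, overlapping the pre-transplant values of 38.1, 6.66 and 41.5. Psmc3 was steadier in WT, with 131, 137 and 191 before and 558, 750 and 665 after transplant (log2 fold change 1.85 ± 0.44 (SE), edgeR adjusted p = 0.0214).

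Of the 11 other cap subunits, 9 rose in TCF-1 cKO, with log2 fold changes of 1.64 to 3.76, and 3 rose in WT (Psmd13, Psmd8 and Psmd4). With library totals alone 7 passed as higher in TCF-1 cKO and 1, Psmd13, in WT. Psmd13, a structural subunit of the lid, had the smallest p in WT, at 90.3, 48.7 and 48.5 normalized CPM before and 593, 780 and 747 after transplant (log2 fold change 3.24 ± 0.49 (SE), edgeR adjusted p = 0.00304). Psmd8, also of the lid, had the smallest p in TCF-1 cKO, at 39.1, 48.4 and 87.1 before and 909, 734 and 740 after transplant (log2 fold change 3.76 ± 0.43 (SE), edgeR adjusted p = 0.000274). The members of this group that did not pass in TCF-1 cKO were Psmd2, at 0.87 ± 0.46 (SE), and Psmd3, at -0.38 ± 0.64 (SE). Psmd14, the deubiquitinase of the lid, had a log2 fold change of 2.98 ± 0.47 (SE) in TCF-1 cKO and 1.19 ± 0.61 (SE) in WT, and the latter did not pass.

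Among activators, Psme1 and Psme2, which form the interferon-inducible activator of the core, rose in both genotypes. With library totals alone Psme1 did not pass in WT (0.33). Psme2 went from 186, 204 and 221 to 1114, 1002 and 1955 normalized CPM in WT and from 67.7, 72.2 and 152 to 2642, 2042 and 2385 in TCF-1 cKO. Its log2 fold changes were 2.46 ± 0.46 (SE) and 4.59 ± 0.46 (SE). Psme2b and Psme3, the nuclear activator, also rose in TCF-1 cKO, by 1.22 and 0.98 on the log2 scale, but neither passed with totals alone (-0.32 and -0.60) or with the GC content and length trends taken out (0.75 and 0.03). Psmf1, which encodes an inhibitor and adaptor of the core, did not pass in either genotype (1.20 ± 0.70 in WT and -0.43 ± 0.56 in TCF-1 cKO, SE).

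Of the 7 assembly chaperones, 6 rose in TCF-1 cKO and 3 in WT (Psmd9, Psmg3 and Psmg4). With library totals alone 3 passed in TCF-1 cKO and 0 in WT. Psmg1, a chaperone of alpha ring assembly, had the smallest p in TCF-1 cKO, at 9.54, 9.7 and 9.21 normalized CPM before and 111, 92.7 and 83.8 after transplant (log2 fold change 3.32 ± 0.37 (SE), edgeR adjusted p = 0.000246). Psmg3 had the smallest p in WT, at 37.2, 42.3 and 24.3 before and 124, 253 and 177 after transplant (log2 fold change 2.14 ± 0.51 (SE), edgeR adjusted p = 0.0214). In TCF-1 cKO only Psmd9 of this group did not pass, at 0.83 ± 0.38 (SE). Psmc3ip rose in TCF-1 cKO from 1.49, 2.98 and 16 to 53.2, 54.2 and 56.8 normalized CPM.

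**Figure D2:**
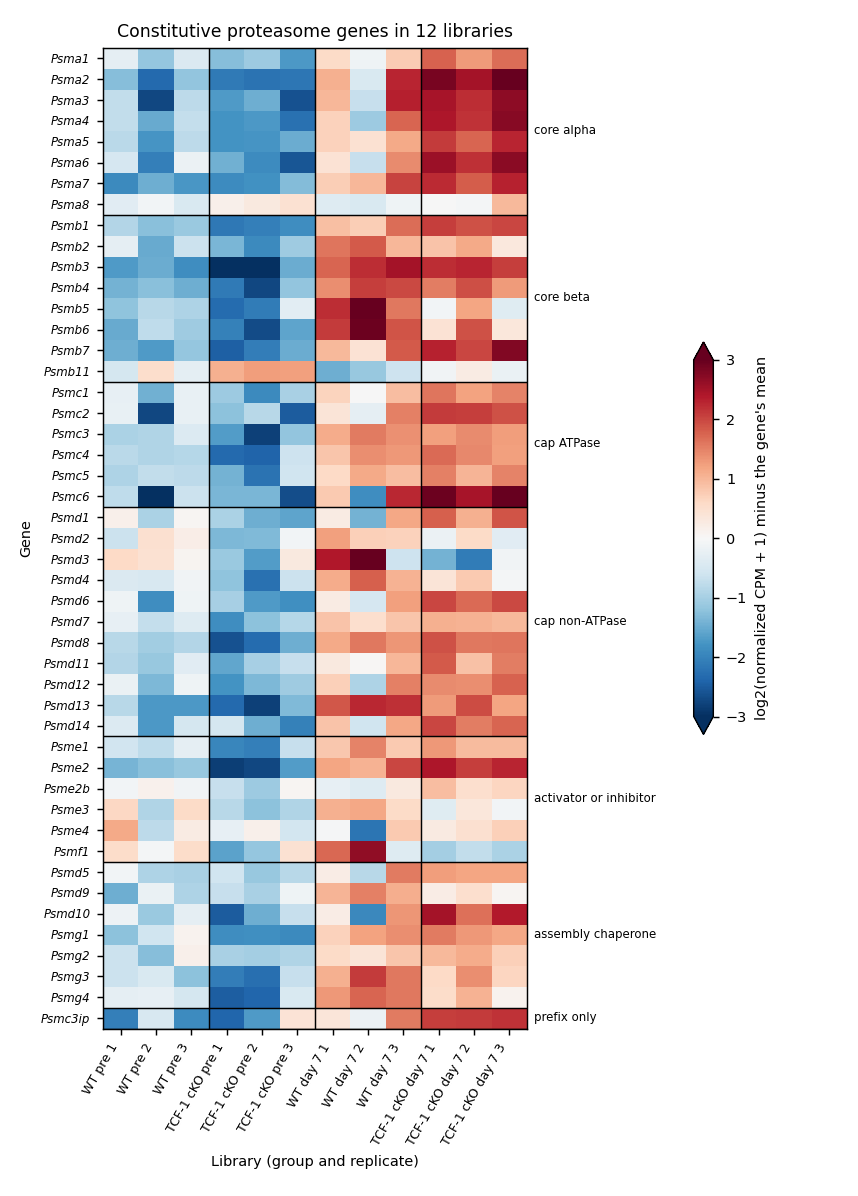
Each row is a member and each column a library; colour is log2(normalized CPM + 1) minus the mean of the gene over the 12 libraries, from -3 (blue) to 3 (red). Most rows are red at day 7 and blue before transplant, Psmb11 is bluest in WT at day 7, and Psmb5, Psmb6, Psmd3 and Psmf1 are reddest in post-transplant WT replicates 1 and 2 while most alpha subunits are reddest in TCF-1 cKO at day 7.

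**Figure D3:**
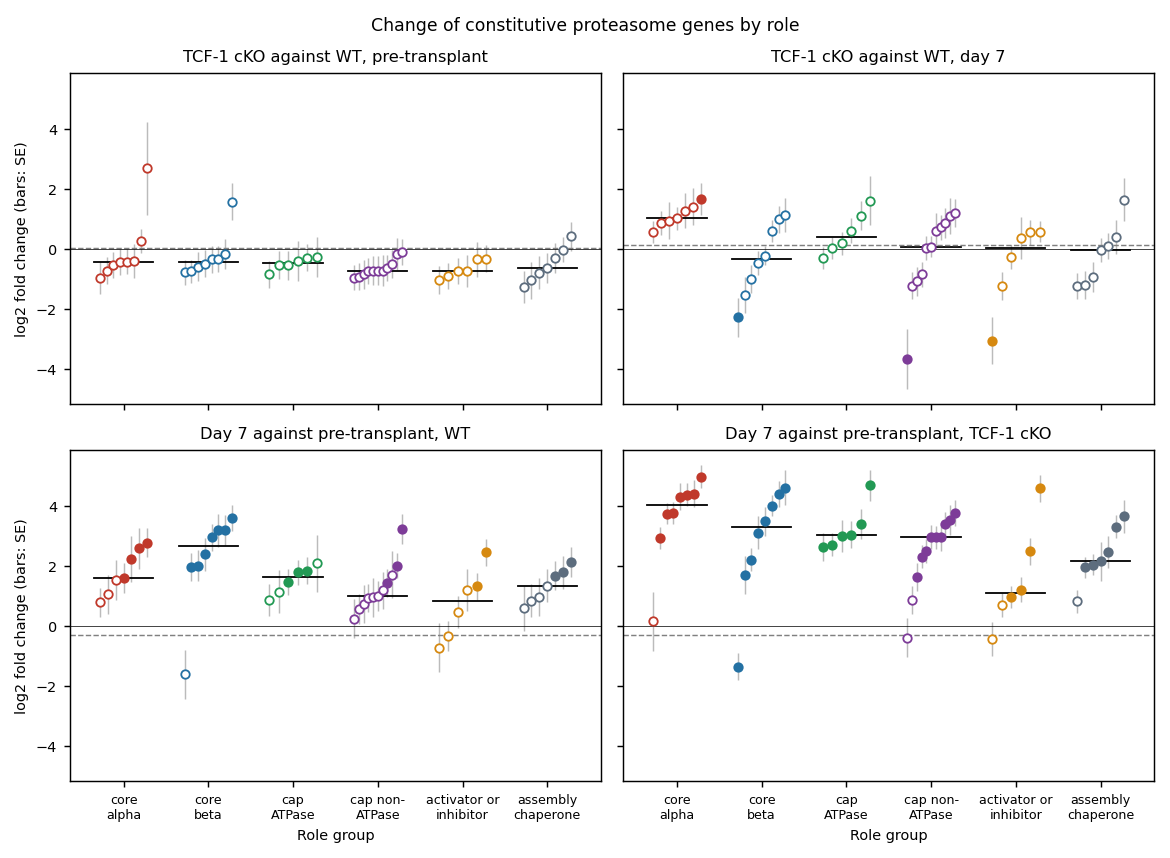
log2 fold change (vertical axis, bars are SE) of each tested member by role group in 4 comparisons; filled points passed an FDR below 0.1, black bars are group medians and the dashed line is the median of all genes tested. Before transplant no point is filled, at day 7 the genotypes differ in 4 members in opposite directions, and most points are filled and above 0 in the comparison of stages in TCF-1 cKO.

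The second question was whether the members differ between the genotypes before transplant. None of the 47 members passed the FDR, where 0.0373% of 18757 genes did. The median log2 fold change was -0.53 against 0.05 over all genes, and 42 members had negative values. With library totals alone the median was -0.19 against 0.39 over all genes, and 15 members were above 0. T cell markers moved with genotype here, their summed CPM being 1335 to 1440 in WT libraries but 631.6 to 693.2 in TCF-1 cKO libraries, and Cd8a lay at 26.4, 28.6 and 30.8 normalized CPM against 154, 87.1 and 151. The part of this shift in the values of the members was not tested. An unadjusted p under 0.05 was found for 4 members, against 17.7% of all genes. DESeq2 called 0 members, where 7.97% of all genes were called, and limma-voom 0, where 0.0107% were. The TCF-1 cKO libraries lay below all WT libraries for 10 members, against 14.3% of all genes, and above them for Psma8 and Psmb11, against 16.1% of all genes. Only the count of members lower without overlap was above the share over all genes. The smallest p by role belonged to Psma6, Psmb11, Psmc3, Psmd8, Psme3 and Psmg1, with edgeR adjusted p-values of 0.238 to 0.354. Psmg1 stood at 9.54, 9.7 and 9.21 normalized CPM in TCF-1 cKO and 15.3, 24.3 and 40.2 in WT, with a log2 fold change of -1.25 ± 0.54 (SE). Psmb11 stood at 13.1, 15.1 and 14.8 against 3.69, 8.62 and 4.51, with a log2 fold change of 1.58 ± 0.61 (SE). Psme3 stood at 55.8, 42.1 and 53.4 against 156, 53.3 and 151, where WT replicate 2 fell within the TCF-1 cKO range. Without TCF-1 cKO replicate 3, 10 members were lower in TCF-1 cKO at an FDR below 0.1, where 8.91% of all genes were, namely Psmb3, Psmb5, Psmc4, Psmd2, Psmd3, Psmd8, Psme1, Psme2, Psmf1 and Psmg4. That library differs from the other 2 of its group in the relation of level to GC content across 21526 genes, with Spearman's rho of 0.26 against -0.23 and -0.29.

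The third question was whether the genotypes differ at day 7. Of 46 members tested, Psma8 being too low, 1 was higher in TCF-1 cKO (Psma6) and 3 were lower (Psmb5, Psmd3 and Psmf1) at an FDR below 0.1. Over the 16026 genes tested 2.51% were higher and 15.4% were lower. The median log2 fold change of the members was 0.38, against 0.15 over all genes. TCF-1 cKO libraries lay above all WT libraries for 19 of the members tested, against 23.4% of all genes, and below them for 7, against 17.3%. Members were thus called no more often than all genes in either direction, while separation of the libraries upward was more common among them. Separation was read from normalized CPM scaled over all 12 libraries, not from the fit. Psmd7 and Psmd8 were among the 19, though their log2 fold changes in the fit were 0.03 and 0.09. By role the 7 alpha subunits tested were all above 0, with log2 fold changes of 0.57 to 1.67 and a median of 1.03, whereas 5 of the 8 beta genes were below 0, with a median of -0.33. The ATPases had a median of 0.41, the other cap subunits 0.09, the activators and inhibitor 0.05 and the assembly chaperones -0.01. With library totals alone the beta genes had a median of 0.08 with 4 of 8 above 0, the assembly chaperones 0.40, and all genes 0.54.

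Psma6 stood at 1067, 831 and 1179 normalized CPM in TCF-1 cKO replicates 1 to 3 and at 244, 112 and 485 in WT, with no overlap. Its log2 fold change was 1.67 ± 0.52 (SE) with an edgeR adjusted p of 0.0772, and 3 against 3 libraries gave an exact permutation p of 0.1, the smallest that this design allows. Psmb5 stood at 192, 464 and 157 normalized CPM in TCF-1 cKO and 937, 1788 and 604 in WT, again with no overlap, for a log2 fold change of -2.27 ± 0.65 (SE) and an edgeR adjusted p of 0.0627. Psmd3, a scaffold subunit of the lid, stood at 33.3, 20.5 and 84 in TCF-1 cKO and 483, 835 and 58.6 in WT. The library labelled WT replicate 3 lay within the TCF-1 cKO range for Psmd3, and the log2 fold change of -3.67 ± 1.00 (SE, edgeR adjusted p = 0.0547) rests on WT replicates 1 and 2. Psmf1 stood at 19.9, 24.1 and 20.8 in TCF-1 cKO and 138, 264 and 31.5 in WT, for a log2 fold change of -3.05 ± 0.78 (SE) and an edgeR adjusted p of 0.0489. All 3 Psmf1 values in TCF-1 cKO lay close together and below WT, although the library labelled WT replicate 3 came close to the highest of them. In GRCm38 the genes lie at chr12:55384222-55418454 (Psma6), chr14:54614119-54618022 (Psmb5), chr11:98682554-98695979 (Psmd3) and chr2:151715812-151744186 (Psmf1). Psmd3 overlaps the antisense transcript Gm12356, whose reads could not be told apart from its own without strand.

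Members with the smallest p in the other role groups did not pass. Psmc2, an ATPase, stood at 428, 420 and 378 normalized CPM in TCF-1 cKO and 130, 82.8 and 284 in WT (log2 fold change 1.12 ± 0.48 (SE), edgeR adjusted p = 0.171). Psmd9, a chaperone of cap assembly, stood at 59.4, 73.1 and 53.3 against 105, 149 and 110 (log2 fold change -1.22 ± 0.44 (SE), edgeR adjusted p = 0.115). The groups did not overlap for either gene. Psmb6 and Psmb7 had log2 fold changes of -1.52 ± 0.60 and 0.99 ± 0.46 (SE), and neither passed. For Psmb6 the library of TCF-1 cKO replicate 2 lay above the lowest WT library.

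These calls depend on single libraries. With any of the other 5 libraries left out, 0 members passed, and at most 2 of all genes tested did. Without the library labelled WT replicate 3, 12 members were higher, where 9.73% of 18183 genes were, and 10 were lower, where 19.4% were. The higher members were Psma2, Psma3, Psma4, Psma5, Psma6 and Psma7 of the alpha ring, Psmb7, Psmc2, Psmc6, Psmd6, Psmd10 and Psmc3ip. The lower members were Psmb2, Psmb5, Psmb6, Psmd2, Psmd3, Psmd4, Psmd9, Psme3, Psmf1 and Psmg4. With all libraries DESeq2 called 4 members higher and 9 lower, where 6.68% and 21.6% of all genes were, and limma-voom 3 higher and 3 lower, where 3.63% and 13.4% were.

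The genotype difference at day 7 went along with the GC content of the transcripts. Over the 46 members tested Spearman's rho between log2 fold change and GC content was -0.68, and over all 16026 genes it was -0.55; both are across genes, which share the same 6 libraries. Of the 22 members with a GC content under the median of all genes tested (49.7%), 20 had positive log2 fold changes, with a median of 0.92, and of the 24 at or over it 9 had, with a median of -0.28. Psmb5 (57.1% GC) and Psmd3 (55.9%) are at the high end, Psma6 (45.7%) is on the low side, and Psmf1 (48.9%) is near the median. By library, the rho between level and GC content across genes was 0.29, 0.39 and -0.08 in post-transplant WT replicates 1 to 3 and -0.36, -0.24 and -0.37 in TCF-1 cKO. When the trend of each library on GC content and length was taken out, 2 members passed as lower, where 5.24% of all genes did, namely Psmf1 (log2 fold change -3.68, adjusted p = 0.0888, with a range of 0.000449 to 0.185 over its 17 alternatives) and Psme3 (log2 fold change -2.14). In that fit Psmb5 had a log2 fold change of -0.51, Psmd3 -1.92 and Psma6 1.11, none of which passed. The median of the alpha subunits was 0.58 and that of the beta genes -0.16, against -0.15 over all genes. Whether base composition produced the difference between the genotypes was not tested, and with trends that run along the groups it cannot be told apart from genotype.

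**Figure D4:**
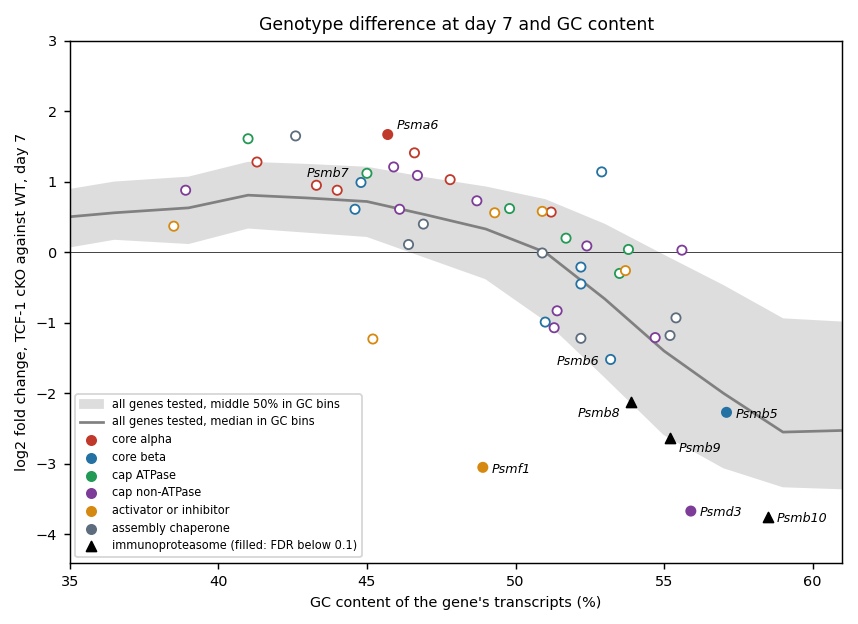
log2 fold change of TCF-1 cKO against WT at day 7 (vertical axis) against the GC content of the transcripts in percent (horizontal axis) for the members by role, with filled points for an FDR below 0.1; triangles are the 3 immunoproteasome genes and the grey line and band are the median and middle 50% of all genes tested in GC bins. Psmb5 lies within the band, Psmb8 and Psmb9 at its lower edge, and Psmb10, Psmd3, Psme3 and Psmf1 below it, the last at 48.9% GC.

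The immunoproteasome genes were set beside the subunits they replace. At day 7 all 3 were lower in TCF-1 cKO. Psmb8 stood at 694, 2327 and 573 normalized CPM in TCF-1 cKO and 4185, 6758 and 2496 in WT (log2 fold change -2.13 ± 0.70 (SE), edgeR adjusted p = 0.0894). Psmb9 stood at 173, 278 and 146 against 1001, 1643 and 415 (-2.63 ± 0.63 (SE), adjusted p = 0.0456). Psmb10 stood at 153, 104 and 117 against 1219, 2546 and 238 (-3.75 ± 0.83 (SE), adjusted p = 0.0448). None of the 3 overlapped between groups, but with the GC content and length trends taken out none passed, at log2 fold changes of -1.34, -1.21 and -1.44, and of the 6 fits that left out 1 library each was called in 1. Between stages all 3 rose in WT, whereas in TCF-1 cKO Psmb8 rose (1.81 ± 0.62, SE) and Psmb9 (0.72 ± 0.50) and Psmb10 (-0.04 ± 0.65) did not pass.

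As a share of the TPM of each pair, Psmb8 of Psmb8 and Psmb5 was 75.7% ± 1.5 (SD, n = 3) in WT and 75% ± 3.66 (SD, n = 3) in TCF-1 cKO at day 7, with overlap. Psmb9 of Psmb9 and Psmb6 was 29.5%, 27.6% and 16.6% in WT and 18.6%, 12% and 17.6% in TCF-1 cKO, with overlap. Psmb10 of Psmb10 and Psmb7 was 88.8%, 96% and 47.5% in WT and 27.3%, 24.6% and 18% in TCF-1 cKO, with no overlap. The exact two-sided permutation p was 0.8, 0.3 and 0.1 for the 3 positions, and over the 12 tests of this family the smallest adjusted p was 0.24. Psmb10 differs from Psmb7 in GC content by 13.7 percentage points, whereas the other pairs differ by -3.18 and 2.05. Before transplant the shares did not separate the genotypes, with means of 81.5% and 76.9% for Psmb8, 45.6% and 43.7% for Psmb9 and 86.1% and 81.8% for Psmb10 in WT and TCF-1 cKO.

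**Figure D5:**
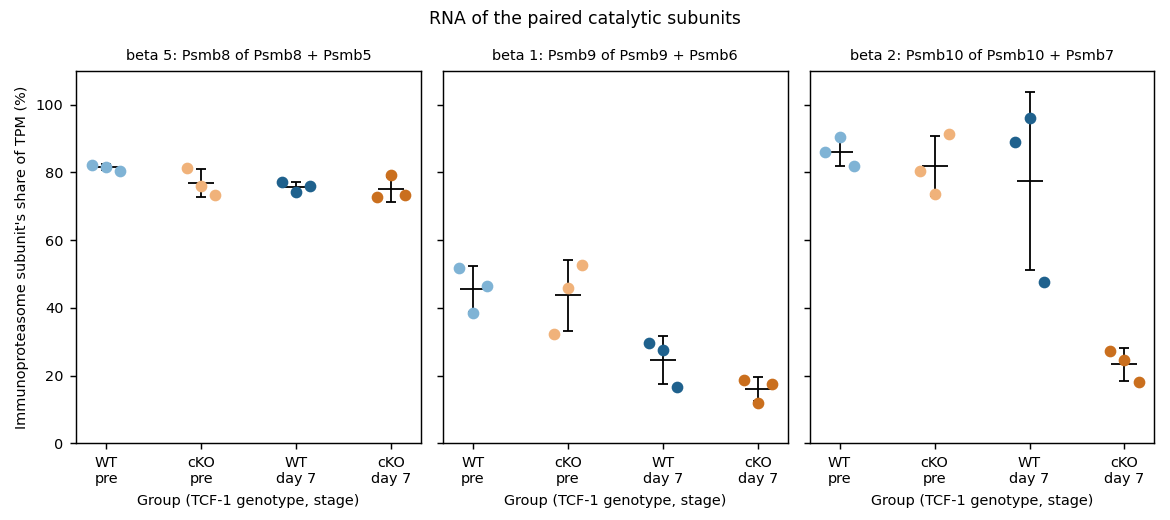
Share of TPM (percent, vertical axis) of the immunoproteasome subunit in each pair with its constitutive counterpart; points are libraries, black bars are mean and SD, n = 3 per group. Psmb8 holds between 72.6% and 82.3% in all libraries, and Psmb10 falls to between 18% and 27.3% in TCF-1 cKO at day 7.

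The last question was whether the genotype difference changed between the stages, tested as an interaction over all 12 libraries. None of the 47 members passed, where 0.00465% of 21526 genes did, and 17 members had an unadjusted p under 0.05, against 15.7% of all genes. DESeq2 called 11 members, where 11.9% of genes with an adjusted p were called, and limma-voom 0, where 0.00465% were. The median interaction was 0.95 on the log2 scale, against 0.04 over all genes. All 8 alpha genes and all 6 ATPases had positive values, with medians of 1.91 and 1.28, while the beta genes had a median of 0.12. Spearman's rho between the interaction and GC content was -0.66 over the members and -0.23 over all genes. Median GC content was 44.8% for the alpha and 52.2% for the beta genes. With the GC content and length trends taken out, the medians were 1.36 for alpha genes (7 of 8 above 0), 1.37 for ATPases and 0.14 for beta genes, against 0.03 over all genes. The part of GC content in the interaction was not tested. The smallest p by role belonged to Psma6 (3.08 ± 0.83), Psmb1 (1.78 ± 0.57), Psmc1 (1.61 ± 0.66), Psmd6 (2.38 ± 0.78), Psme2 (1.86 ± 0.64) and Psmd10 (2.81 ± 0.98), given as log2 values with SE and with edgeR adjusted p-values of 0.233 to 0.28. Psmd10, a chaperone of cap assembly, stood at 6.13, 13.4 and 23.8 normalized CPM in pre-transplant TCF-1 cKO and 225, 125 and 206 after transplant, against 35.2, 17.6 and 32.1 and then 45.3, 9.52 and 99.6 in WT. Psmc1 stood at 52.9, 29.8 and 57.8 and then 347, 264 and 321 in TCF-1 cKO, against 96.4, 41.4 and 97.3 and then 181, 113 and 216 in WT. Psmd6 stood at 49.3, 29.6 and 26.7 and then 399, 321 and 395 in TCF-1 cKO, against 90.5, 26.3 and 90.2 and then 118, 69.7 and 232 in WT. In these 3 genes the TCF-1 cKO libraries were above all WT libraries after transplant, while before it the genotypes overlapped. Without the post-transplant library labelled WT replicate 3, 14 members had a positive interaction at an FDR below 0.1, where 5.48% of 23972 genes did, and 1 had a negative interaction (Psmd3), where 3.25% did. These 14 were Psma1 to Psma6, Psmb1, Psmb7, Psmc6, Psmd1, Psmd6, Psmd10, Psmd12 and Psme2.

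A list of 28 other genes of the pathway was read against the same shares of all genes. In TCF-1 cKO 13 rose and 1 fell between stages, beside 19.7% and 16.8% of all genes, and in WT 5 rose and 1 fell, beside 9.7% and 10.3%. Pomp, the chaperone that completes the core, stood at 43.5, 50.1 and 72.5 normalized CPM before and 1579, 1428 and 1775 after transplant in TCF-1 cKO (log2 fold change 4.84 ± 0.40 (SE)) and at 77.7, 73 and 128 and then 744, 484 and 1519 in WT (3.02 ± 0.56 (SE)). Between the genotypes at day 7, 6 were lower and 0 higher, beside 15.4% and 2.51% of all genes, and without the library labelled WT replicate 3, 9 were lower and 1 higher, beside 19.4% and 9.73%. Without post-transplant TCF-1 cKO replicate 2, 0 passed, where 1 of all genes tested did. With the GC content and length trends taken out, 2 were lower and 0 higher, where 5.24% of all genes were lower. The 6 lower with all libraries included Adrm1, a ubiquitin receptor of the cap, at -3.36 ± 0.81 (SE), and Uba1, the enzyme that activates ubiquitin, at -3.48 ± 0.77 (SE). With those trends taken out Adrm1 had -1.52 and did not pass, while Uba1 passed at -3.10. Nfe2l1, a transcription factor of proteasome genes, had a log2 fold change of -1.91 ± 0.76 (SE) that did not pass with all libraries (edgeR adjusted p = 0.144). Without the library labelled WT replicate 3 it was -2.37 and passed, and with the trends taken out it was -0.94 and did not pass.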

How the data were processed

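From cDNA made with the SMARTseq HT kit, which keeps no strand information, the authors pseudoaligned paired-end reads with Kallisto 0.46.2, and the authors deposited for each of 117497 transcripts an estimated count, which is not scaled, and a TPM value, which is scaled for length and depth. The submitters' processing notes name mm9 without a role, and the transcript release is not given in the sources used here. Genes that overlap on opposite strands cannot be told apart where exons overlap.

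Transcripts were joined to GENCODE M21 (GRCm38), which gave 116374 transcripts a gene. Estimated counts were summed per gene and rounded to whole numbers, and TPM values were summed. Groups followed the titles. Genes were tested with edgeR 4.0.16 (TMM, filterByExpr, quasi-likelihood test, Benjamini-Hochberg adjustment over all genes tested, FDR below 0.1, the threshold of the study) on the libraries of each comparison, and the interaction on all 12. SE is the size of a log2 fold change divided by the square root of its F. Normalized CPM are TMM-scaled over all 12 libraries and were compared by exact permutation. Counting floors (3 counts) cover counting error only. The fits were tested on simulated data. Alternatives were limma-voom (limma 3.58.1), DESeq2 1.42.0, its size factors, library totals alone, other filters, counts scaled from TPM, an FDR of 0.05, a replicate block, an offset for the loess trend (span 0.4) of each library on GC content and length, a joint fit of the 12 libraries, and omission of each library in turn. R 4.3.3, Python 3.11.15, SciPy 1.17.1 and blastn 2.17.0 were used.

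The members and lists were chosen with earlier results of these data known, so no test over a list is given. Values by library are given for the catalytic subunits, for the immunoproteasome genes at day 7 and for members past the FDR between genotypes. They are also given for most members with the smallest p in a role group and comparison. For Psma6, Psmb1, Psmc3 and Psmd8 they are given in part only. Pomp, Adrm1, Uba1, Nfe2l1 and Psmd14, and the further examples, fall outside this rule and were picked with their values known. The other pathway genes are a fixed list of ubiquitin and proteasome genes.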

Additional observations from a re-analysis of the deposited data

How the results depend on the processing

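Medians of the members kept their direction under every alternative run, and 88 alternative medians moved by less than the median SE of the members. The exceptions were the stage comparisons with library totals alone, at 0.53 in WT and 1.32 in TCF-1 cKO. Of the alternative counts of called members, 78 were within 1.5 times the main count, 6 were larger and 11 smaller. For TCF-1 cKO against WT pre-transplant (main count 0), leaving out 1 library gave 0 to 10, with 10 without TCF-1 cKO replicate 3. For TCF-1 cKO against WT post-transplant (main count 4), DESeq2 gave 13, the GC content and length offset 2, the replicate block with that offset 0, and an FDR of 0.05 gave 1. Leaving out 1 library gave 0 to 22 there, with 22 without WT replicate 3 and 0 without each of the others. For the stages in WT (main count 22), library totals alone gave 10, and leaving out 1 library gave 10 to 31, with 10 without pre-transplant WT replicate 3, 12 without pre-transplant WT replicate 1 and 31 without post-transplant WT replicate 2. For the stages in TCF-1 cKO (main count 41) leaving out 1 library gave 37 to 43. For the interaction (main count 0), DESeq2 gave 11, no low-count filter gave 1, and leaving out 1 library gave 0 to 15, with 15 without post-transplant WT replicate 3. The cause of these shifts was not tested. Among alternatives for single named genes that passed the FDR, 413 passed again in the same direction, 80 kept the direction without passing, and 0 reversed. Leaving out libraries moved none of the highest TPM means by more than 1 SD, but with n = 3 no larger move was possible. That check thus says nothing about their order.

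Same-numbered libraries did not deviate together, with correlations of their deviations from the group means between -0.106 and 0.115, so the replicate numbers were not taken to pair them. With the replicate block, 0, 3, 21, 39 and 0 members were called in the 5 comparisons (genotype pre-transplant, genotype post-transplant, stages in WT, stages in TCF-1 cKO and interaction), each within 1.5 times the main count.

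Pre-transplant TCF-1 cKO libraries were the shallowest, with 3 counts worth 0.315 to 0.667 CPM against 0.0922 to 0.165 elsewhere. A member that did not pass was not shown to be equal between groups.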
